A study of Mus musculus with 4 samples.

Results

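Inhibitory checkpoint receptors are surface proteins of lymphocytes that restrain activation. The genes described here are Ctla4, Pdcd1, Lag3, Havcr2, Tigit, Cd160, Btla, Cd200, Cd274 and Cd96, and they were chosen by name, as all probe sets whose symbol in the platform annotation is 1 of these 10. That gave 12 probe sets of 45101, covering 9 genes: 4 probe sets for Cd160 and 1 for each of the others. Tigit was not analysed here, since no probe set carried it as its only symbol in the annotation used. Probe sets listed under several symbols were not matched to a gene.

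RNA from sorted splenic CD8 T cells of B6 wild-type mice was read on 4 Affymetrix mouse arrays. The Ly49+ group (CD44+CD122+Ly49+, labelled CD8 Treg) and the Ly49- group (CD44+CD122+Ly49-, labelled conventional memory cells) had 2 arrays each, and no age or treatment was used here. CD44 and CD122 mark memory-type cells, and the Ly49 family (Klra genes) recognises MHC class I. Whether the replicates are separate animals is not stated in the labels, and the p-values therefore reflect the spread among 4 arrays, which could be technical.

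In T cells these receptors act in different ways. CTLA-4 competes with the costimulatory receptor CD28 for CD80 and CD86, and PD-1 recruits phosphatases to the antigen receptor when it binds PD-L1 or PD-L2. LAG-3 binds MHC class II, TIM-3 (Havcr2) binds galectin-9 among other ligands, CD160 and BTLA share the ligand HVEM, and TIGIT and CD96 compete with the activating receptor CD226 for CD155. CD200 and PD-L1 (Cd274) are ligands themselves, which signal to CD200R and PD-1 on other cells. Many of these genes are induced by antigen receptor signalling, and several stay high in exhausted CD8 T cells.

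In Ly49+ cells the checkpoint genes did not move as a block. Ctla4, Pdcd1, Lag3 and Cd200 fell 1.63-fold to 2.71-fold, Havcr2 and Cd160 rose 1.77-fold and 1.39-fold, and Btla, Cd96 and Cd274 did not pass the test. The test was limma on log2(intensity + 16), 1 probe set a gene, with Benjamini-Hochberg adjustment over all 18193 genes and a threshold of 0.05. Of the 9 genes, 2 passed higher, where 1.93% of all genes did, and 4 passed lower, where 2.07% did. The groups did not overlap in 8 of the 9, where 48.4% of all genes did not overlap. The genes were chosen with earlier results of these data known, so these counts are not a test of the list.

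The promoters of the genes that passed are shown because these genes moved in both directions in the same pair of groups. Each run is the 250 bases before the gene's start, read 5′ to 3′ on the gene's strand, from RefSeq (GRCm38.p6). Promoters of 9 of the 10 genes were matched by symbol, in 10 windows since Cd160 has a pair of starts, and Lag3 had none. The windows lie at chr1:60908775-60909024 (plus strand) for Ctla4, chr1:94052554-94052803 (minus strand) for Pdcd1, chr16:45409054-45409303 (minus strand) for Cd200, chr11:46454681-46454930 (plus strand) for Havcr2, and chr3:96829352-96829601 (minus strand) and chr3:96814522-96814771 (minus strand) for the upstream and downstream starts of Cd160. Capitals mark any match, on either strand, to TGGGAA (the core bound by Ikaros-family factors, to which Helios belongs), GGAAA (NFAT), TGANTCA (AP-1), GGTGTGA (T-box factors), TGTGGT (Runx) or GGAAGT (Ets).
Ctla4: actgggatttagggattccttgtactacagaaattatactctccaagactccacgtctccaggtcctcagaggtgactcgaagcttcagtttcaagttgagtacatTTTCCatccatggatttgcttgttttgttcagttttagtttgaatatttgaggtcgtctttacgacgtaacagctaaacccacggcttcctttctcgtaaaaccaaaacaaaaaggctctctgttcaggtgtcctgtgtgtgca
Pdcd1: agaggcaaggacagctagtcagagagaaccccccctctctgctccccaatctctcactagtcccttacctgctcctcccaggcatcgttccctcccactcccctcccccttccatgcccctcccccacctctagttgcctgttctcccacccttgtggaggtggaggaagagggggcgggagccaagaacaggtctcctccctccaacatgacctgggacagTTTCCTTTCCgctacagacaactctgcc
Cd200: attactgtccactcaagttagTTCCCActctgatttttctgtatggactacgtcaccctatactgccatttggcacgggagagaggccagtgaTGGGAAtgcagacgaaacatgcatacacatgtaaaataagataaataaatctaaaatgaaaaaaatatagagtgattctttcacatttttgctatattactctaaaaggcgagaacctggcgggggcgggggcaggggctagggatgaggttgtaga
Havcr2: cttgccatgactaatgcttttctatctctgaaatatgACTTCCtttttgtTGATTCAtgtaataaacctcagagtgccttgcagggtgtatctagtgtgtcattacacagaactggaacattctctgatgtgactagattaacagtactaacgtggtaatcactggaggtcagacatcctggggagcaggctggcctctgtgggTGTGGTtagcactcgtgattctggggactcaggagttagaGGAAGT
Cd160, upstream start: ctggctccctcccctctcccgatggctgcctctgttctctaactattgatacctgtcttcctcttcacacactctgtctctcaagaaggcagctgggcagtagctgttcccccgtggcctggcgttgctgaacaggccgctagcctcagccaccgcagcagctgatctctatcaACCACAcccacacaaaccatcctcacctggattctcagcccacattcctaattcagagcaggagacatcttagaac
Cd160, downstream start: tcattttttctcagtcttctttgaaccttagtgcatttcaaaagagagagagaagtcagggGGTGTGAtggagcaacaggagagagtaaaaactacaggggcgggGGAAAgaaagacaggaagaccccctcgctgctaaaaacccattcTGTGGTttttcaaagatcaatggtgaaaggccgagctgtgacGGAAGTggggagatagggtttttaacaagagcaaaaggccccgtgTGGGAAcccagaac

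No motif was shared by all the windows. Ctla4 held 1 GGAAA match and Pdcd1 held 2 that run on directly from each other, a match that 55.6% of all 32851 RefSeq promoter windows of this length also hold. Cd200 held 2 matches to TGGGAA and no GGAAA, and 21.6% of all windows hold TGGGAA. Havcr2 held the only TGANTCA match among the 10 windows (6.75% of all windows), with 1 TGTGGT and 2 GGAAGT matches. The downstream Cd160 window matched every motif except TGANTCA and held the only match to GGTGTGA (3.33% of all windows), while the upstream one held a single TGTGGT. That Runx match occurred in 6 of the 10 windows, those of Havcr2, Tigit, both Cd160 starts, Btla and Cd96, against 14.0% of all windows, and GGAAGT in 3 of 10 against 19.7%. A match is a run of letters and does not show that a factor binds there. In the same promoter table Tigit, Btla, Cd200 and Cd96 lie within 2456 kb of chromosome 16, and the starts of Btla, which did not pass, and Cd200, which fell, are 185 kb apart.

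The arrays were close to each other, with median intensities between 188.5 and 190.4 and pairwise Pearson correlations of log2 values between 0.996 and 0.998. Precision is limited by having 4 arrays. The ratio of the 3′ to the 5′ control probe set, a sign of RNA quality, was lower in Ly49+ cells for both transcripts. It was 1.26 and 1.29 for Actb in Ly49+ cells and 1.37 and 1.34 in Ly49- cells, and 1.71 and 1.70 for Gapdh in Ly49+ cells and 1.74 and 1.75 in Ly49- cells, and its part in the differences below was not tested. The array of Ly49- replicate 1 stood apart in 1 respect. The geometric mean of its 9 older probe sets for spiked hybridisation controls was 2537, where those of the other arrays were 7789 and 7917 (Ly49+) and 7291 (Ly49- replicate 2). The newer probe sets for such controls read 9761 and 9629 on Ly49+ arrays and 9727 and 9437 on Ly49- arrays. Without this array 1 gene, Cd160, passed, and Havcr2, Cd200, Lag3, Pdcd1 and Ctla4 had adjusted p of 0.070, 0.057, 0.085, 0.11 and 0.16. Without the other Ly49- array Cd160 and Cd200 passed, and Havcr2, Lag3, Pdcd1 and Ctla4 had 0.064, 0.115, 0.12 and 0.081. All 9 directions were the same in the 4 fits that left out 1 array in turn, each of which took the spread of the single remaining array from the other group. Where the groups did not overlap, leaving out 1 array cannot reverse a direction, so only Cd274 could have changed. As a check of the cell type, Cd8a read 18009 and 18363 in Ly49+ cells and 19070 and 18793 in Ly49- cells. The sort gene Klra7 read 8969 and 8895 in Ly49+ cells and 910 and 900 in Ly49- cells. Of 10 measured T-cell identity genes none passed limma (2 at an unadjusted p under 0.05), nor did any of 3 gamma-delta and NKT markers (0) or 3 red-cell genes (1), and Cd4 read 133 and 148 against 147 and 140.

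All 12 probe sets read above the highest bacterial control (70.3), which marks the background, in both groups. The intensities are linear and arbitrary, and a level cannot be set against that of another probe set.

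**Figure D1:**
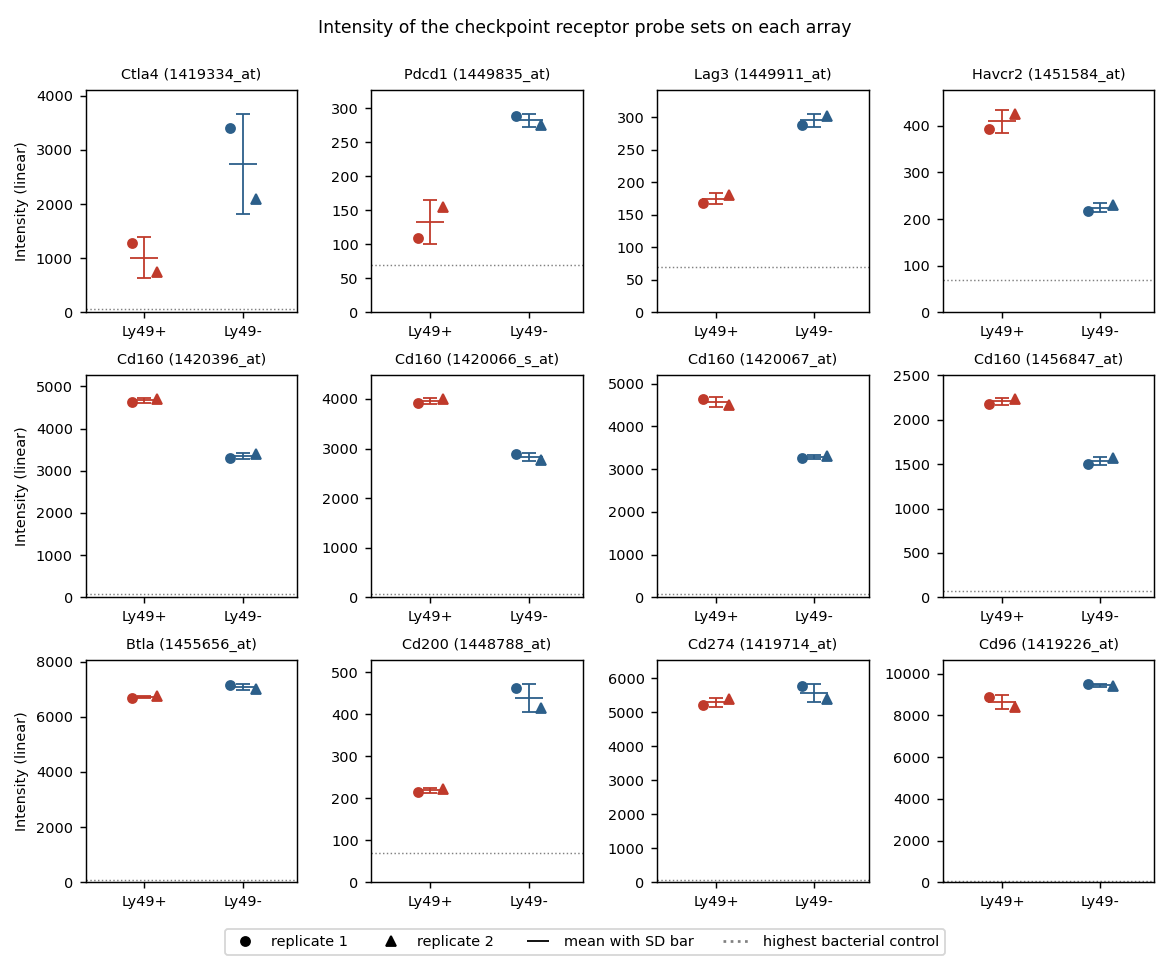
Linear intensity of each of the 12 checkpoint receptor probe sets on each array, Ly49+ left and Ly49- right, with the group mean and SD bar (2 arrays each) and the highest bacterial control as a dotted line. The Ly49+ arrays lie below both Ly49- arrays for Ctla4, Pdcd1, Lag3 and Cd200 and above them for Havcr2 and all 4 Cd160 probe sets, and for Cd274 the groups overlap.

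Ctla4, the B7 receptor that holds back priming of T cells, read 1276 and 741 in Ly49+ cells (replicates 1 and 2) and 3395 and 2084 in Ly49- cells. Both Ly49+ arrays were below both Ly49- arrays, and replicate 1 was the higher array of each group. The means were 1008 ± 378 and 2740 ± 927 (SD, n = 2 each), a log2 fold change of -1.44 ± 0.26 SE (limma adjusted p = 0.018). The fall was the largest among the 9 genes and had the widest interval (95%, -2.02 to -0.85). The adjusted p was 0.068 without Ly49+ replicate 2, 0.12 when the spread was fitted with no trend on the level, 0.36 with a robust spread and 0.081 with every probe set tested on its own.

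The replicate difference of Ctla4 had nearly the same size in both groups. On the log2 scale replicate 1 exceeded replicate 2 by 0.77 in Ly49+ cells and by 0.70 in Ly49- cells. In the other 8 genes that difference lay between -0.45 (Pdcd1, Ly49+) and 0.15 (Cd200, Ly49-). Of 16 measured T-cell activation genes, replicate 1 was the higher in both groups in 10, replicate 2 in 2 (Il2ra and Tnfrsf4), and the sign differed between the groups in 4 (Nr4a3, Myc, Cd40lg and Il2), with median differences of 0.23 in Ly49+ cells and 0.28 in Ly49- cells. Over all genes the median difference was -0.001 in Ly49+ cells and 0.001 in Ly49- cells, and signs were not counted over all genes. The genes given with values next were picked after their values were seen. Nr4a1, which encodes the nuclear receptor Nur77, read 5683 and 1887 in Ly49+ cells and 4770 and 1559 in Ly49- cells, so replicate 1 exceeded replicate 2 by 1.58 and 1.60. Egr1, a zinc-finger factor induced within minutes of signalling, gave 1.09 and 1.01, the orphan receptor gene Nr4a2 1.53 and 1.80, and the interferon gamma gene Ifng 1.37 and 0.93. The related genes Egr2 and Egr3 differed by 0.46 and 0.48 and by 0.22 and 0.36, and Nr4a3 by 0.08 and -0.18. Egr1, Nr4a1 and Nr4a2 did not pass between Ly49+ and Ly49- cells (log2 fold change 0.06, 0.26 and 0.70 for Egr1, Nr4a1 and Nr4a2, limma adjusted p = 0.96, 0.86 and 0.58). Whether Ctla4 and these genes are linked was not tested.

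**Figure D2:**
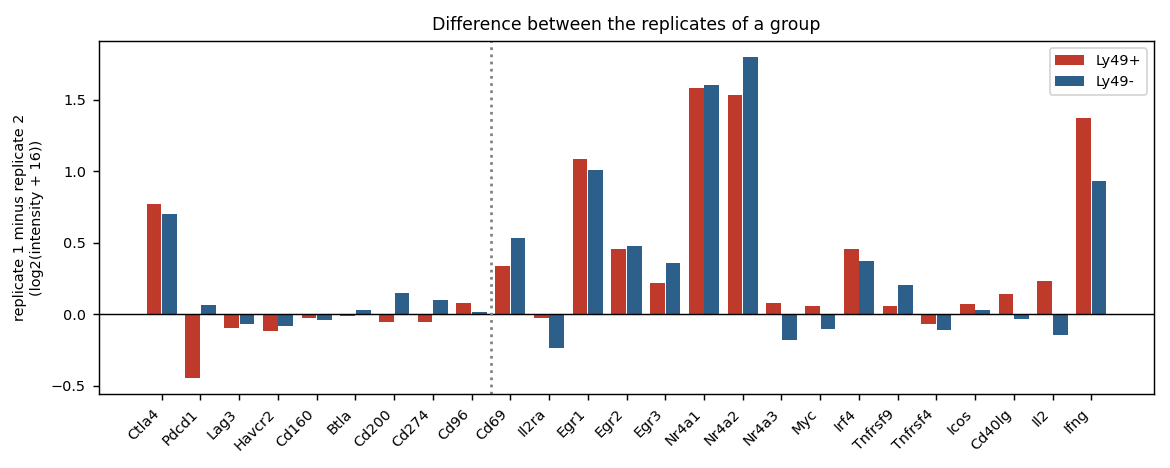
Difference between replicate 1 and replicate 2 on log2(intensity + 16), Ly49+ bars left of Ly49- bars, for the 9 checkpoint genes and, right of the dotted line, the 16 measured T-cell activation genes. Ctla4 stands out among the checkpoint genes, with bars of 0.77 and 0.70, and of the activation genes 10 have both bars above 0, 2 have both below and 4 have 1 on each side.

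Pdcd1, which encodes PD-1, read 110 and 155 in Ly49+ cells and 289 and 276 in Ly49- cells. The Ly49+ arrays were both lower, with replicate 1 the lowest of the 4. Its means of 133 ± 32.2 and 283 ± 9.70 gave a log2 fold change of -1.02 ± 0.15 SE (adjusted p = 0.0078). The Ly49+ readings were dim, the lower one standing at 110 against a bacterial control of 70.3.

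Lag3, whose product is a CD4-like receptor for MHC class II, read 168 and 181 in Ly49+ cells and 288 and 302 in Ly49- cells. Replicates lay close together in both groups and the groups stood clear of each other. The log2 fold change was -0.71 ± 0.11 SE (means 175 ± 8.73 and 295 ± 9.91, adjusted p = 0.0089), and the adjusted p was 0.068 without Ly49+ replicate 1. The MHC class II genes H2-Aa, H2-Ab1 and H2-Eb1, which encode the ligand of LAG-3, rose by 0.75, 0.78 and 0.73 on the log2 scale. Macrophages, dendritic cells and B cells make much MHC class II, and on the same arrays 11 of 14 myeloid markers rose (median 0.65). Their part in the class II difference was not tested.

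Cycling genes and markers of CD4 T cells were read beside these falls. Of 19 measured cell cycle genes 15 fell and none rose (median -0.45), and their summed intensity was 52316 and 50074 in Ly49+ cells and 62433 and 62786 in Ly49- cells. Ccna2, a cyclin of S phase and mitosis, fell by 0.53 on the log2 scale, and Nusap1 and Birc5, which act on the mitotic spindle and in cell division, fell by 0.57 and 0.48. Tpx2 and Ccnb2 fell by 0.68 and 0.72, and Mki67, which encodes the Ki-67 antigen, fell by 0.44. Of 8 measured CD4 T-cell markers none passed limma (4 at an unadjusted p under 0.05), and their sum was 6715 and 6825 in Ly49+ cells and 6709 and 6946 in Ly49- cells, with Cd40lg below background. Foxp3 read 123 and 123 against 151 and 179 (adjusted p = 0.14). Tnfsf8 lay on the other side, with 1646 and 1836 against 1491 and 1468 (limma adjusted p = 0.13). Cxcr5 read 1665 and 1806 against 1913 and 2261 (limma adjusted p = 0.15). The part of dividing cells in the lower Ctla4, Pdcd1 and Lag3 was not tested, and in bulk RNA fewer cells expressing a gene and less RNA per cell cannot be told apart.

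Havcr2, which encodes TIM-3, went the other way. It read 392 and 426 in Ly49+ cells and 218 and 231 in Ly49- cells, so that the groups were well apart. The log2 fold change was 0.82 ± 0.11 SE (means 409 ± 23.6 and 224 ± 9.21, adjusted p = 0.0042). TIM-3 is also made by macrophages and dendritic cells, and myeloid markers were higher on the same arrays. Of 14 measured 11 rose, 2 fell (S100a8 and S100a9, calprotectin subunits of neutrophils) and 1 did not pass. Their sum was 23616 and 26105 in Ly49+ cells and 16224 and 16186 in Ly49- cells, with a median log2 fold change of 0.65. Among them Lyz2, which encodes lysozyme, rose by 1.13 on the log2 scale, Mpeg1, which encodes perforin-2, by 0.83, Vcam1, an adhesion molecule of splenic macrophages, by 0.73 and C1qb, a complement subunit, by 0.64. Itgam, which encodes the CD11b integrin chain, was below background. Of 9 dendritic-cell markers, the chemokine receptor gene Xcr1 rose by 0.95 and Bst2 fell by 0.32. The dendritic sum was 17390 and 15113 in Ly49+ cells and 19658 and 17598 in Ly49- cells, with Cd209a below background. Most of that sum is Ccr7, which T cells also express (11689 and 9182 in Ly49+ cells, 13332 and 11330 in Ly49- cells). The median log2 fold change of the 9 markers was 0.22, of the other sign than the sum, with 0.40 for Flt3, 0.43 for Zbtb46 and 0.24 for Batf3, which did not pass. Itgax (-0.17) and Siglech (-0.05) lay on the other side and did not pass either. Itgax read 1345 and 1498 in Ly49+ cells and 1600 and 1591 in Ly49- cells. The part of these cells in the Havcr2 difference was not tested.

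Cd160, a receptor of cytotoxic lymphocytes anchored in the membrane by a lipid, was the best covered gene. Its brightest probe set read 4633 and 4709 in Ly49+ cells and 3303 and 3397 in Ly49- cells. Replicates lay close together, and both Ly49+ arrays were above both Ly49- arrays. The log2 fold change was 0.48 ± 0.05 SE (means 4671 ± 53.4 and 3350 ± 66.8, adjusted p = 0.0014). The other 3 probe sets gave 0.48, 0.48 and 0.52, and all 4 passed when every probe set was tested on its own (limma adjusted p from 0.013 to 0.020), where 1.19% of 45037 probe sets did. One of them, with 3909 and 4005 in Ly49+ cells and 2890 and 2774 in Ly49- cells, is of a kind that may also detect other transcripts. The dimmest read 2182 and 2237 against 1501 and 1565. The 4 probe sets read the same RNA and are not replicates of each other.

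CD160 is a marker of natural killer (NK) cells as well, and NK-cell genes were read beside it. Of 11 measured 5 rose and none fell, with a median log2 fold change of 0.14 and a sum of 37169 and 37722 in Ly49+ cells against 25555 and 27768 in Ly49- cells. The lectin-like receptor gene Klre1 rose by 2.21 on the log2 scale, the adaptor genes Fcer1g and Tyrobp by 1.22 and 0.61, the integrin gene Itga2 by 0.64 and the Fc receptor gene Fcgr3 by 0.33. Klre1 made up most of the difference between the sums, with 11709 and 11632 in Ly49+ cells and 2568 and 2448 in Ly49- cells. Ncr1, the NK-cell receptor NKp46, was at or below background, reading 34.9 and 44.8 in Ly49+ cells and 35.2 and 44.6 in Ly49- cells, and Klrb1b and Khdc1a were below background too. Gzma, which encodes granzyme A, lay on the other side, with 2181 and 3116 in Ly49+ cells and 3916 and 6509 in Ly49- cells (log2 fold change -0.95, limma adjusted p = 0.0508). The part of NK cells in the Cd160 difference was not tested.

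Btla, the other HVEM receptor, did not share this difference. It read 6692 and 6737 in Ly49+ cells and 7170 and 7011 in Ly49- cells. Both Ly49+ arrays were the lower ones by a narrow margin, and the log2 fold change of -0.08 ± 0.04 SE did not pass (adjusted p = 0.36). The 95% interval ran from -0.17 to 0.01. BTLA is abundant on B cells, of whose 11 measured markers Cd22, a sialic acid-binding inhibitory lectin, rose by 1.05, Cd79b, a chain of the B-cell receptor, fell by 0.28 and 9 did not pass. Their sum was 18763 and 20050 in Ly49+ cells and 18878 and 19890 in Ly49- cells, with Pax5, Cr2 and Fcer2a below background. Most of that sum is the immunoglobulin gene Ighm (13508 and 14523 in Ly49+ cells, 14415 and 15442 in Ly49- cells). The median log2 fold change of the 11 was 0.15, with 0.44 for Ms4a1 and 0.28 for Cd79a, which did not pass. The part of B cells in the Btla values was not tested. Tnfrsf14, which encodes HVEM, read 202 and 189 in Ly49+ cells and 210 and 234 in Ly49- cells (adjusted p = 0.48).

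Cd96, which competes for CD155, read 8893 and 8421 in Ly49+ cells and 9500 and 9393 in Ly49- cells. The groups did not overlap, but the margin was small, with a log2 fold change of -0.13 ± 0.04 SE (adjusted p = 0.15) and a 95% interval from -0.22 to -0.03. Its activating counterpart Cd226 read 589 and 581 against 708 and 641 (log2 fold change -0.20, adjusted p = 0.297). Pvr, which encodes CD155, read 2069 and 1952 in Ly49+ cells and 2061 and 2229 in Ly49- cells (adjusted p = 0.52).

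The remaining genes encode ligands. Cd200, whose product signals through CD200R to restrain myeloid cells, read 214 and 223 in Ly49+ cells and 463 and 415 in Ly49- cells. Both Ly49+ arrays were far below the Ly49- arrays, and the log2 fold change was -0.95 ± 0.11 SE (means 219 ± 5.81 and 439 ± 33.6, adjusted p = 0.0024). Its receptor gene Cd200r1 read 192 and 187 in Ly49+ cells and 155 and 158 in Ly49- cells (adjusted p = 0.26).

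Cd274, which encodes PD-L1, read 5198 and 5385 in Ly49+ cells and 5760 and 5383 in Ly49- cells. It was the only one of the 9 genes whose groups overlapped. The log2 fold change was -0.07 ± 0.05 SE (adjusted p = 0.50), with a 95% interval from -0.19 to 0.04. The other PD-1 ligand gene, Pdcd1lg2, read 474 and 395 against 358 and 366 (adjusted p = 0.296).

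**Figure D3:**
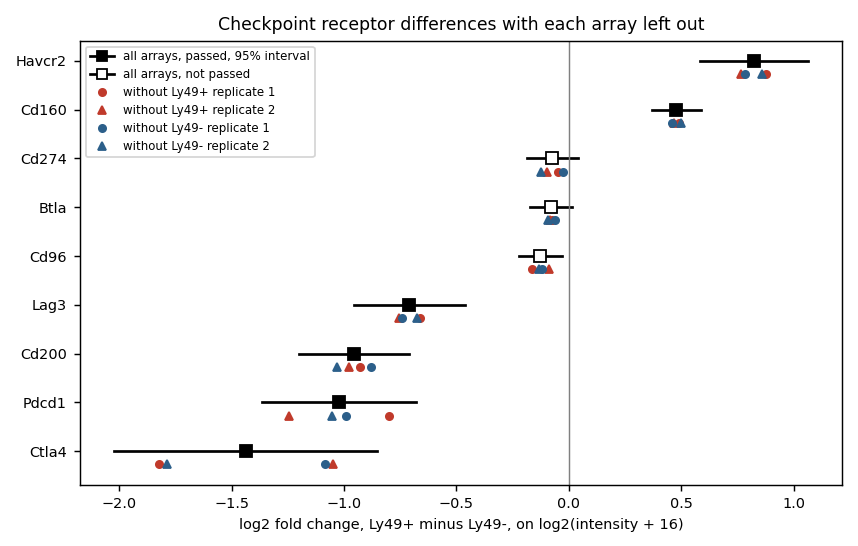
Log2 fold change of the 9 checkpoint genes, Ly49+ minus Ly49-, with 95% intervals (squares, filled where the gene passed), and the value with each array left out (small symbols under each line). No value crosses 0 for any gene, which was fixed in advance for all but Cd274, the only gene whose groups overlapped. The Ctla4 values fall into a pair at -1.82 and -1.79 and a pair at -1.09 and -1.05, depending on which array was left out.

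Related genes were read beside the receptors. Over all genes the median log2 fold change was -0.04, and over the 9 checkpoint genes -0.13. Of 18 measured ligand genes 3 rose, the MHC class II genes given above with the myeloid markers, and 15 did not pass (median 0.03). Of 8 activating counterparts none passed limma (3 at an unadjusted p under 0.05, median 0.07). Tnfsf14, which encodes the HVEM ligand LIGHT, was nearest (log2 fold change 0.26, adjusted p = 0.068), followed by the costimulator genes Icos (-0.16, 0.106) and Tnfrsf18 (0.14, 0.17). Of 19 signalling and trafficking partners 2 fell. These were Grap2, an adaptor of antigen receptor signalling (log2 fold change -0.28, adjusted p = 0.044), and Lrba, whose product protects CTLA-4 from lysosomal degradation (-0.30, 0.047). Lrba read 1219 and 1304 in Ly49+ cells and 1561 and 1554 in Ly49- cells. Ptpn6, the phosphatase SHP-1 recruited by several of these receptors, differed by 0.12 (adjusted p = 0.13).

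Of 19 measured transcription factors linked to checkpoint receptor expression 1 rose, Maf (log2 fold change 0.58, adjusted p = 0.011), and 18 did not pass (median 0.06). Of 16 measured T-cell activation genes none passed limma (4 at an unadjusted p under 0.05, median 0.10), the nearest being Icos, Egr3 (0.38, adjusted p = 0.13) and Myc (0.12, 0.22). Other inhibitory receptors also moved in both directions. Of 11 measured, Klrc1, which encodes NKG2A, rose by 0.91 on the log2 scale, Cd244a by 1.26 and the MHC class I receptor gene Pirb by 0.65, Klrg1 fell by 1.92 and 7 did not pass (median 0.02).

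**Figure D4:**
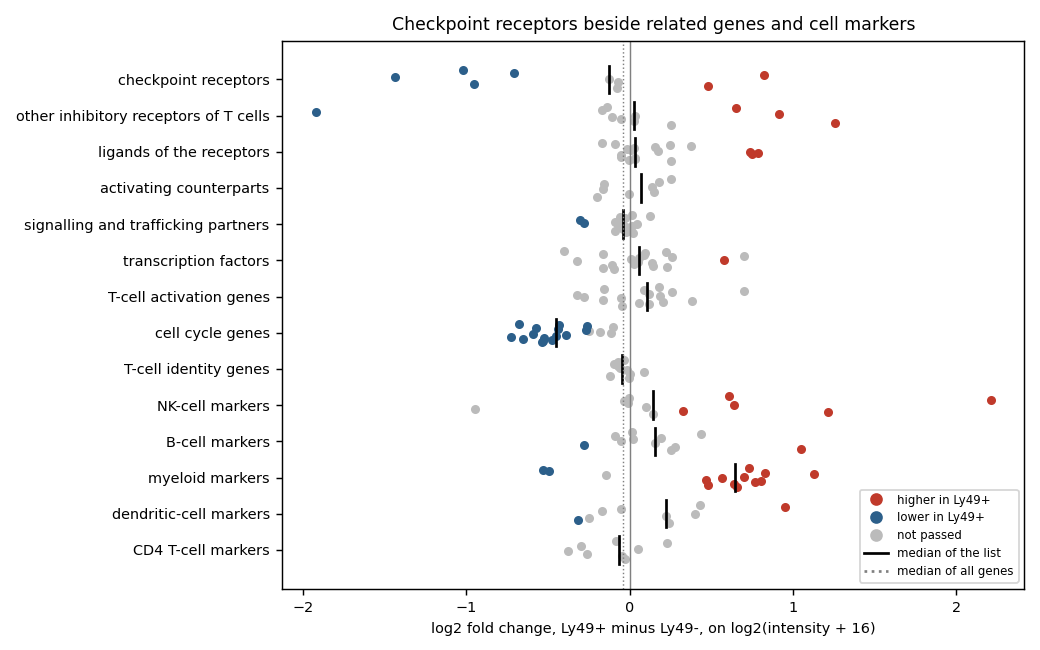
Log2 fold change, Ly49+ minus Ly49-, of every measured gene in each list shown (points), with the median of the list (black bar) and of all genes (dotted line). The sort genes, the gamma-delta and NKT markers and the red-cell genes are left out. Red points were higher in Ly49+ cells, blue points lower, and grey points did not pass. Checkpoint receptors and other inhibitory receptors hold points on both sides, activating counterparts and T-cell activation genes are all grey, and the cell cycle genes lie left of 0.

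For each gene that passed, the 3 genes whose 4 values ran most alike were sought among 12696 other genes above background, by the root mean square distance between log2 values centred on the gene's mean. With 4 arrays this is a description. The distance was not scaled to a gene's own spread, so it cannot be compared between genes of small and large differences. Ctla4 had the largest distances, its nearest genes being Nrn1 at 0.31, Auts2 at 0.33 and Tmprss13 at 0.35. Nrn1, which encodes neuritin, read 299 and 291 in Ly49+ cells and 812 and 654 in Ly49- cells, so its Ly49+ replicates lacked the difference seen in Ctla4. Pdcd1 was nearest to Zbtb32, a transcriptional repressor (0.115), Bambi-ps1 (0.118) and the palmitoyltransferase gene Zdhhc2 (0.124). Zbtb32 was also the second nearest gene to Cd200 (0.040), after the bone morphogenetic protein receptor gene Bmpr1a (0.023) and before Nrp1, which encodes neuropilin-1 (0.045). Zbtb32 read 149 and 166 in Ly49+ cells and 352 and 310 in Ly49- cells. Lag3 was nearest to Cdkn3, a phosphatase of the cell cycle (0.031), Cyp2s1 (0.034) and Ttc39c (0.036). Cdkn3 read 250 and 281 in Ly49+ cells and 441 and 444 in Ly49- cells. Havcr2 was nearest to Pid1 (0.034), Paqr9 (0.036) and the complement gene C6 (0.039), and Cd160 to the lysophospholipid transporter gene Mfsd2a (0.020), the nutrient-sensing GTPase gene Rragd (0.022) and Pla2g7 (0.022).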

How the data were processed

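RNA of 4 samples, 2 Ly49+ and 2 Ly49-, was measured on Affymetrix arrays, with groups and replicates as in the titles. Per the labels, RNA was extracted with an RNeasy kit and biotin-labelled. The authors deposited 1 intensity per probe set, taken as linear because the values ran from 8.32 to 43959. Their distributions were already close between arrays, by a method not given in the sources used here. Probe sets were named by the platform annotation of 2016: 34945 of 45101 had 1 symbol, 932 several, 9160 were unlisted and 64 were controls. The brightest probe set (highest mean log2 value) was kept for each of 18193 genes.

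Values were transformed to log2(intensity + 16), so fold changes understate those of dim genes, and tested with limma 3.58.1 in R 4.3.3 (trend of the spread, group as the only term, 6.70 prior and 2 residual degrees of freedom) over all genes, and again over all 45037 non-control probe sets. The R package data.table (1.17.8) read the files, and the test was tried on simulated data. Background was the highest of 27 bacterial control probe sets (70.3). Named genes were every checkpoint gene, list genes that passed (at most 6 of a list by smallest p) or else 3 by smallest p, and the 3 nearest genes. In the marker lists not every gene that this rule covers was named, Csf1r, C1qc, Klra5 and Klra8 being among those left out. Ligands, counterparts, markers and activation genes outside this rule were named after their values were seen. The checkpoint genes and lists were chosen with earlier results of these data known. Promoters were searched for letters on both strands.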

Additional observations from a re-analysis of the deposited data

How the results depend on the processing

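Every checkpoint gene kept its direction in all 14 alternatives: quantile normalization, a pseudocount of 1 or 64, genes above background alone, averaged probe sets, exclusion of cross-hybridising probe sets, a spread without trend or robustly estimated, an adjusted p under 0.1, a replicate block, and each array left out. Most of these could not change a direction. A changed spread, threshold, replicate block or choice of genes or probe sets left the fold changes as in the main fit. Averaging probe sets could alter Cd160 alone, and leaving out an array could reverse Cd274 alone. The threshold of 0.1 had to pass every gene that passed the main test. Cd160 passed in all 14 (log2 fold change 0.46 to 0.50, limma adjusted p at most 0.0345), Cd200 missed 1, Pdcd1 and Havcr2 missed 2, Lag3 3 and Ctla4 5, and Btla, Cd274 and Cd96 passed in none. With 1 array left out, 1 to 5 of the 6 genes passed, 1 to 2 higher and 0 to 3 lower, with 1 or 2 when a Ly49- array was left out. With every probe set tested on its own, 8 of the 12 probe sets passed with all arrays and 0 with any 1 array left out (limma, 9 or 10 at an unadjusted p under 0.05 in each of these smaller fits). Of all 45037 probe sets 1.19% passed with all arrays, and the share in the smaller fits was not counted. All 12 probe sets were above background also with the mean of the bacterial controls plus 2 SD (48.5). Over all genes, 728 passed in the main test, 371 without a trend, 1256 at an adjusted p under 0.1, and 289, 261, 115 and 107 without Ly49+ replicates 1 and 2 and Ly49- replicates 1 and 2.

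The replicate numbers are shared between groups, but nothing in the labels says that they mark a common animal or day. Deviations of same-numbered arrays correlated at 0.24 across all genes and at 0.33 across genes above background. With the replicate block the same 6 checkpoint genes passed (limma, Ctla4 adjusted p = 1.23e-09, Cd96 0.073) and 1527 of all genes passed. The block leaves fewer residual degrees of freedom than the main test. The SE of Ctla4 was 0.065 with it, against 0.26 in the main test.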
